A study of Mus musculus with 4 samples.

Results

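The genes described here are the constant-region genes of the mouse antibody chains and the joining chain, 10 of the 32285 genes counted: Ighm, Ighd, Ighg1, Ighg2b, Ighg2c, Ighg3 and Igha for the heavy chains, Igkc and Iglc1 for the light chains, and Jchain. They were listed by gene name, with no threshold on a measured value. Single cells came from EO771 mouse mammary tumors that had been grown in the mammary fat pad of female mice and sorted for viable CD45+ leukocytes. There were 2 tumors from Csf1rfl/fl mice, which carry a floxed Csf1r gene and no Cre, and 2 from Lyve1CreCsf1rfl/fl mice, in which Cre under the control of Lyve1 deletes floxed Csf1r in cells that express Lyve1. Each of 2 Chromium 3′ runs pooled 1 tumor of each genotype, and antibody-linked hashtags told the tumors of a run apart. With 2 tumors per genotype, a p-value measures only the spread between these 4 tumors.

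An antibody is built from a pair of identical heavy chains and a pair of identical light chains. A resting B cell makes IgM and IgD from a single long heavy-chain transcript that contains Ighm and Ighd, and after activation it can switch irreversibly by DNA recombination to one downstream gene, such as Ighg2c or Igha. Light chains come from the kappa locus (Igkc) or a lambda locus (Iglc1, Iglc2, Iglc3). A plasma cell secretes antibody and devotes a large share of its messenger RNA to it, and Jchain encodes the small protein that links units of IgM and IgA into polymers. On the GRCm38 build (GENCODE vM21), the heavy-chain genes lie on the minus strand of chromosome 12, in the order Ighm (113418558 to 113422730), Ighd (113406604 to 113416324), Ighg3 (113356224 to 113361232), Ighg1 (113325240 to 113330523), Ighg2b (113302965 to 113307933), Ighg2c (113285325 to 113288932) and Igha (113254830 to 113260236). Igkc lies on the plus strand of chromosome 6 (70726435 to 70726966), Iglc1 on the minus strand of chromosome 16 (19061618 to 19062071) and Jchain on the minus strand of chromosome 5 (88519809 to 88527891).

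The IgG genes are close copies of each other, so a read near the 3′ end must fall on a differing base to be given to one of them. The secreted coding sequences of the 4 IgG genes shared 76.1% to 86.3% of aligned bases, with Ighg2b and Ighg2c the most alike pair. Their last 30 coding bases are shown because they are the part of the coding sequence closest to where a 3′ library reads. Capitals mark bases that differ from Ighg1 at the same position, 6 in Ighg2b, 9 in Ighg2c and 6 in Ighg3 (GENCODE vM21 transcripts, GRCm38, transcript strand).
Ighg1: gagaagagcctctcccactctcctggtaaa
Ighg2b: AagaagaCcAtctcccGGtctccGggtaaa
Ighg2c: ACTaagaCcAtctcccGGtctcTGggtaaa
Ighg3: CagaagaAcctGtcTcGctcCcctggtaaa
Iglc2 and Iglc3, lambda genes outside the 10, shared 96.5% of aligned bases, so the division of reads between them is uncertain, whereas Iglc1 shared 74.8% and 75.4% with them. The hashtag sequences that assigned the cells to tumors were the following 15-base tags, exchanged between the genotypes from run 1 to run 2.
A0301 (Csf1rfl/fl in run 1, Lyve1CreCsf1rfl/fl in run 2): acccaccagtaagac
A0302 (Lyve1CreCsf1rfl/fl in run 1, Csf1rfl/fl in run 2): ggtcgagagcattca

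Of 53361 cell barcodes, 48560 were used, each with under 5% of its UMIs (unique molecular identifiers, each counting 1 captured molecule) from mitochondrial genes and with 1 hashtag higher than the other. The tumors had 11204 to 12906 cells and 73682523 to 86824585 UMIs, and the median cell had 3547 to 5106 UMIs. The runs shared 200 cell barcodes, and doublets were not called here, so droplets that held more than 1 cell remained. Csf1r, the targeted gene, stood at 0.887 and 0.951 UMIs per 10000 in all cells of the Csf1rfl/fl tumors and at 0.554 and 0.540 in the Lyve1CreCsf1rfl/fl tumors (log2 difference -0.72, SE 0.18, adjusted p = 0.99997 over all genes, edgeR quasi-likelihood test with Benjamini-Hochberg adjustment). Clusters made up mostly of cells of the Lyve1CreCsf1rfl/fl tumor of run 2 had been removed by the study itself as possible contamination, and that tumor and the B cells in it stand apart in what follows.

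B cells were gated by at least 1 UMI each of Cd79a, a signalling chain of the B cell receptor, and Ms4a1, which encodes CD20. The gate held 208 cells (1.86% of the cells used) in run 1 and 615 cells (5.30%) in run 2 for Csf1rfl/fl, and 121 (0.938%) and 3356 (26.1%) for Lyve1CreCsf1rfl/fl. Pairs of values below are given in this order, run 1 before run 2. The B cell share of the Lyve1CreCsf1rfl/fl tumor of run 2 was thus above all others, while that of the Lyve1CreCsf1rfl/fl tumor of run 1 was the lowest. All 8 listed B cell markers, among them Pax5 and Cd22, had UMIs in the gate in every tumor, with a summed level of 8.27 to 15.8 UMIs per 10000 in Csf1rfl/fl and 15.1 to 22.0 in Lyve1CreCsf1rfl/fl tumors. The lowest of these sums belonged to the Csf1rfl/fl tumor of run 2, whose gated cells also had a median of 9136 UMIs against 1741.5 to 2396 in the other 3 tumors. Only 35.6% of its gated cells had one hashtag at 3 times the other or more, against 76.0% to 88.0% elsewhere, so some of the cells counted for it may belong to the Lyve1CreCsf1rfl/fl tumor of the same run or be doublets. Among cells with such a clear hashtag, a choice made after seeing the data, B cells were 2.35% (219 cells) in that tumor, and 1.96%, 0.856% and 27.3% in the Csf1rfl/fl tumor of run 1 and the Lyve1CreCsf1rfl/fl tumors of runs 1 and 2. The macrophage markers (6 of 6 with UMIs in every tumor) summed to 17.8 and 11.1 in the gate of the Csf1rfl/fl tumors and to 6.32 and 4.67 in that of the Lyve1CreCsf1rfl/fl tumors, and the neutrophil markers (4 of 4) to 109 and 70.0 against 116 and 61.8. The part of these other cells' RNA in the antibody gene levels was not tested. The study's own filtering, which kept singlets and dropped the clusters named above, left 31, 4, 12 and 217 of these B cells.

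Plasma cells were gated by at least 3 UMIs of Mzb1, a chaperone of antibody assembly, with Cd79a and without Ms4a1. The gate held 14 and 26 cells for Csf1rfl/fl and 4 and 97 for Lyve1CreCsf1rfl/fl, between 0.0310% and 0.754% of cells. The 7 listed plasma markers summed to 13.7 and 13.6 UMIs per 10000 in the Csf1rfl/fl and 11.2 and 22.3 in the Lyve1CreCsf1rfl/fl tumors, with Sdc1 (syndecan 1, CD138) at 0 in the Lyve1CreCsf1rfl/fl tumor of run 1. The gate was not pure. In 116 of its 141 cells the 10 genes made up more than 5% of all UMIs, and 84 of these 116 had Sdc1. All 116 had Jchain, which is itself among the 10 genes summed for that 5%. The other 25 cells included 2 with Jchain and 3 with Sdc1. The study's own filtering kept 1, 0, 0 and 1 of the gated plasma cells.

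**Figure D1:**
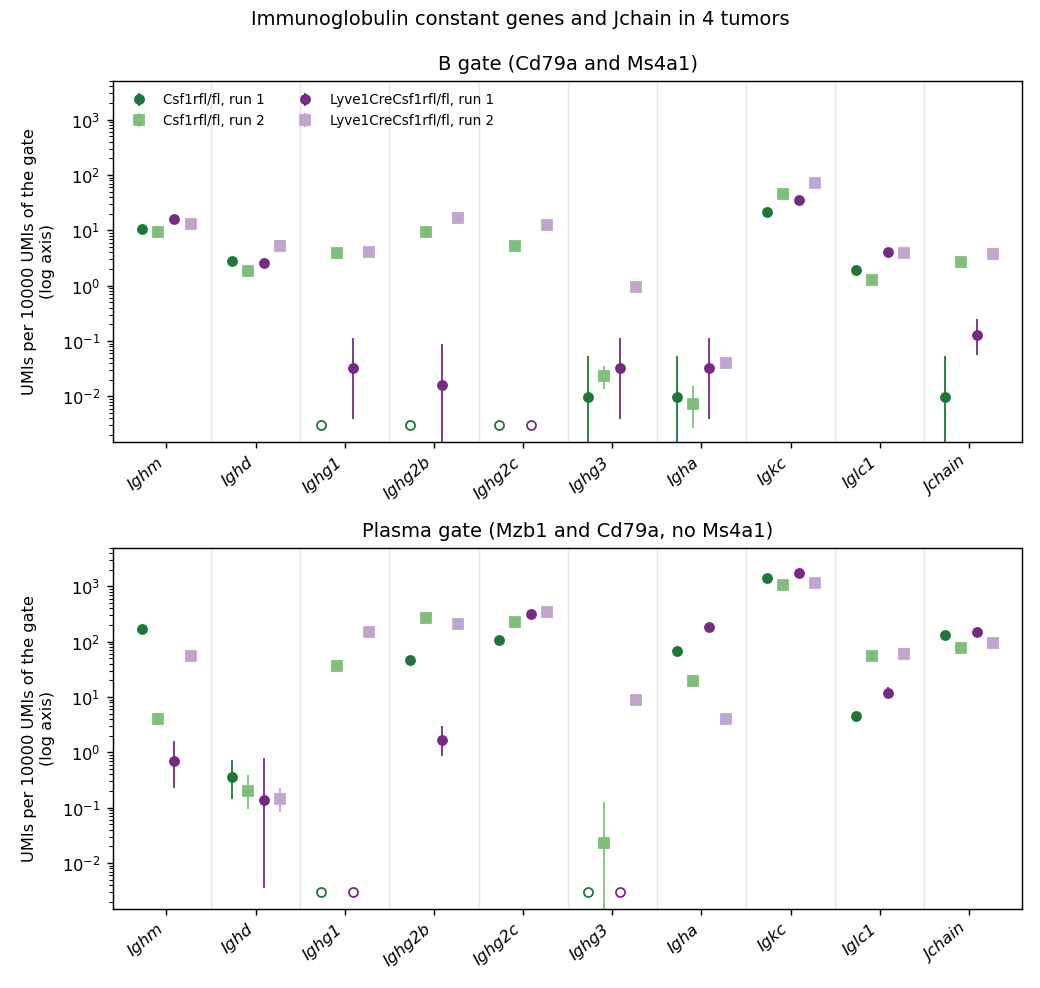
UMIs of each of the 10 genes per 10000 UMIs (log axis) in the B gate and the plasma gate, 1 point per tumor with an exact Poisson 95% interval and open circles for 0 UMIs. Igkc lies highest of the 10 in every tumor in both gates, and Ighg1, Ighg2b and Ighg2c in the B gate lie higher in both tumors of run 2 than in those of run 1.

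Ighm, the IgM heavy chain, was among the highest heavy-chain genes of the B gate in each tumor. It stood at 10.7 and 9.28 UMIs per 10000 in the Csf1rfl/fl tumors (run 1, run 2) and at 16.0 and 13.1 in the Lyve1CreCsf1rfl/fl tumors. Because the library counts 1 tag near the 3′ end of each molecule, these levels are molecules and were not divided by length. In the Lyve1CreCsf1rfl/fl tumor of run 1, 1 cell gave 341 of the 1000 Ighm UMIs, and without it the level was 10.7, the same to 3 digits as in the Csf1rfl/fl tumor of that run. Without the cell richest in Ighm in every tumor, a choice made after seeing the data, the levels were 10.5 and 7.18 against 10.7 and 12.4, and little separated the tumors of run 1. Among cells with a clear hashtag they were 12.4 and 16.4 against 13.7 and 16.8, and the genotypes overlapped. Ighd, expressed with Ighm before switching, stood at 2.74 and 1.83 against 2.56 and 5.32, overlapping between genotypes, with the highest level in the Lyve1CreCsf1rfl/fl tumor of run 2. The number of cells that carried 50% of the gate's Ighm UMIs was 54 and 9 in the Csf1rfl/fl and 12 and 704 in the Lyve1CreCsf1rfl/fl tumors, and the richest single cell had 2.41%, 22.8%, 34.1% and 4.92% of them in the same order. For Ighd it took 38 and 133 against 21 and 791 cells, and no cell had more than 3.75%.

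The IgG genes of the B gate were found in run 2 alone beyond a few UMIs. Ighg2c, the IgG2 gene typical of C57BL/6 mice, had 0 UMIs in both run 1 tumors, which allows up to 0.0288 and 0.0480 UMIs per 10000 (3 counts; counting error only). In run 2 it had 4359 UMIs (5.26 per 10000) in the Csf1rfl/fl and 21667 (12.5 per 10000) in the Lyve1CreCsf1rfl/fl tumor. Ighg2b had 0 and 1 UMIs in run 1 against 9.32 and 17.0 UMIs per 10000 in run 2, and Ighg1 0 and 2 UMIs against 3.92 and 4.11 per 10000. Ighg3 was near the floor in 3 tumors (1, 19 and 2 UMIs) and reached 0.962 per 10000 in the Lyve1CreCsf1rfl/fl tumor of run 2, where 1 cell gave 795 of its 1666 UMIs. Igha, the IgA heavy chain, stayed between 0.00724 and 0.0410. These levels came from few cells. In the Csf1rfl/fl and Lyve1CreCsf1rfl/fl tumors of run 2, 50% of the UMIs lay in 2 and 3 cells for Ighg1, in 3 and 8 for Ighg2b and in 2 and 9 for Ighg2c, so each level rests on a handful of cells and its counting interval does not cover that. Among cells with a clear hashtag, Ighg2c in the Csf1rfl/fl tumor of run 2 stood at 0.124, against 13.7 in the Lyve1CreCsf1rfl/fl tumor of that run, while Ighg2b was still at 8.64 and 21.4 and Ighg1 at 4.42 and 2.68.

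Igkc was the most abundant of the 10 genes in the gate, at 21.3 and 46.2 UMIs per 10000 in the Csf1rfl/fl and 35.2 and 73.2 in the Lyve1CreCsf1rfl/fl tumors. Within each run the Lyve1CreCsf1rfl/fl tumor was higher, but the groups overlapped. It took 57 and 8 cells in the Csf1rfl/fl and 12 and 31 in the Lyve1CreCsf1rfl/fl tumors to hold 50% of the Igkc UMIs. In the Lyve1CreCsf1rfl/fl tumor of run 1, 1 cell gave 781 of 2199 Igkc UMIs (35.5%), and without it the level was 23.0, against 21.3 in the other tumor of that run. Iglc1, the lambda 1 chain, stood at 1.96 and 1.29 against 4.06 and 3.88. The genotypes did not overlap for Iglc1, nor over all gated cells for Ighm. The share of all genes without overlap is not given, so nothing is read from it. Iglc1 was not called between genotypes in the gate (edgeR adjusted p = 0.515). Of the Iglc1 UMIs in the Lyve1CreCsf1rfl/fl tumor of run 2, 26.2% lay in 1 cell, and without the richest cell of each tumor the levels were 1.84 and 1.19 against 3.65 and 2.87. Jchain was close to absent in run 1 (1 and 8 UMIs) and stood at 2.69 and 3.82 UMIs per 10000 in run 2, in 48 and 194 of the gated cells.

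Antibody transcripts took a large part of the RNA in the plasma gate. Igkc stood at 1449 and 1068 UMIs per 10000 in the Csf1rfl/fl tumors, and at 1755 and 1169 in the Lyve1CreCsf1rfl/fl tumors, so that kappa constant transcripts were more than 10% of all UMIs in each. Jchain stood at 134 and 76.6 against 151 and 94.8. For both genes the tumors of run 1 were above those of run 2, and the genotypes overlapped. For Jchain that order rested on 1 of the 4 plasma cells of the Lyve1CreCsf1rfl/fl tumor of run 1, which gave 63.1% of its Jchain UMIs. Without the richest cell of each tumor the Jchain levels were 104 and 66.5 against 63.6 and 94.3, and the runs overlapped. Ighg2c had 106 and 226 UMIs per 10000 in the Csf1rfl/fl and 316 and 346 in the Lyve1CreCsf1rfl/fl tumors, the one IgG gene found well above its floor in all 4 tumors. Ighg2b ranged from 1.68 to 270 and Ighg1 from 0 in both tumors of run 1 to 152 in the Lyve1CreCsf1rfl/fl tumor of run 2. Iglc1 stood at 4.50, 55.4, 12.1 and 60.4 in the same order of tumors, and 91.6% of it in the Csf1rfl/fl tumor of run 2 came from 1 cell. In that tumor 12 of the 26 gated plasma cells had a clear hashtag, and among those Ighg2c stood at 118 and Iglc1 at 4.17. Ighd, which plasma cells lose, lay between 0.140 and 0.354.

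Single plasma cells decided several of these levels. In the Csf1rfl/fl tumor of run 1, 1 cell of 14 gave 52.1% of the Ighm UMIs behind a level of 171 per 10000, and all of its Ighg2b (46.3 per 10000) came from 1 cell. Igha had 68.0, 19.4, 183 and 4.02 UMIs per 10000, and in each tumor 1 IgA cell carried 97.8% to 100% of them. Of the 1103 Ighg3 UMIs in the Lyve1CreCsf1rfl/fl tumor of run 2, 99.9% lay in 1 cell. For such genes the level rests on a single cell, so cells were also counted by class.

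The plasma and B gates were then compared within tumors, over the 3 tumors with at least 5 cells in both (edgeR quasi-likelihood test with the tumor as a block; the Lyve1CreCsf1rfl/fl tumor of run 1 had too few plasma cells). Over all 8738 genes tested, 12.3% passed an adjusted p of 0.05, with 7.52% higher and 4.8% lower in the plasma gate. Of the 10 antibody genes, 9 were higher and 1 was lower, and their median log2 difference was 4.90 against -0.07 over all genes. Igkc rose by a log2 difference of 5.20 (SE 0.27, adjusted p = 5.51e-10), Jchain by 6.37 (SE 0.80, adjusted p = 1.55e-05) and Igha by 9.33 (SE 0.65, adjusted p = 9.10e-09). The Igha difference rests on 1 plasma cell in each of the 3 tumors, without which its plasma levels were 1.77 and 0.0717 UMIs per 10000 in the Csf1rfl/fl tumors and 0.0899 in the Lyve1CreCsf1rfl/fl tumor, against 0.00959, 0.00724 and 0.0410 in the B gate. Ighd fell by 3.85 on the log2 scale (SE 0.34, adjusted p = 2.33e-07). These calls, and that of Ighg2c (log2 difference 6.68), kept their side of the threshold in every alternative run. None of the alternatives left out the single IgA cells of all 3 tumors. With clear hashtags only, that of the Csf1rfl/fl tumor of run 1 was left out, and Igha stood at 1.84 UMIs per 10000 in its plasma gate.

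Other members were less secure in that comparison. Ighm was higher by 2.11 (SE 0.62, edgeR adjusted p = 0.0298), and its call was lost with DESeq2, with cells of a clear hashtag only, with stricter gates and without the Lyve1CreCsf1rfl/fl tumor of run 2. In the Csf1rfl/fl tumor of run 2 Ighm was lower in the plasma gate, at 4.04 UMIs per 10000 against 9.28 in the B gate. The Csf1rfl/fl tumor of run 1 had 171 against 10.7, and the Lyve1CreCsf1rfl/fl tumor of run 2 had 55.1 against 13.1. Iglc1 was higher by 4.04 (SE 0.53), a call that was lost without that tumor. Ighg3 (3.26) was higher through 1 cell of 1 tumor. Its plasma level was 8.83 UMIs per 10000 in the Lyve1CreCsf1rfl/fl tumor of run 2 and 0.0081 without that cell, against 0.962 in the B gate, and in the Csf1rfl/fl tumors the plasma gate had 0 and 1 UMIs. Ighg2b (5.78) and Ighg3 were not called by DESeq2, and Ighg1 (4.59) was not called without the tumor block. The gates themselves favor antibody-secreting cells on one side, by Mzb1, and B cells on the other, by Ms4a1. Part of these differences is thus built into the gating, though the 10 genes did not enter it. The plasma gate also held 25 cells with at most 5% of their UMIs from the 10 genes.

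Genes outside the antibody loci moved in the same comparison as follows. Of 19 plasma cell and secretion genes, 17 were higher in the plasma gate (median log2 difference 2.65), among them Tnfrsf17 (6.31), the receptor BCMA, the endoplasmic reticulum genes Fkbp11 (4.73) and Derl3 (4.63), and Sdc1 (3.63). Tnfrsf13b and Fcrl5 were not called. Of 11 B cell genes, 10 were lower, among them Cr2 (-4.69), Cd22 (-3.47), Pax5 (-3.37) and Fcer2a (-3.32), and Cd79b was not called (-0.37). The lambda genes Iglc2 (1.27) and Iglc3 (1.04) were higher. None of 5 switching and germinal center genes tested and none of 6 antibody receptor genes tested passed.

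Each cell was given the heavy-chain class with the most UMIs, at least 3 and without a tie, Ighm and Ighd counting together. All 194 classed B-gate cells of the Csf1rfl/fl and all 99 of the Lyve1CreCsf1rfl/fl tumor of run 1 were IgM/IgD. An IgG share of up to 1.88% and 3.66% (exact Clopper-Pearson 95% limits, as for all shares of cells here) could have gone undetected there. These limits cover the sampling of cells within 1 tumor and not the spread between tumors, so they set no tumor apart from another. In run 2, 20 of 575 classed B-gate cells were IgG in the Csf1rfl/fl tumor (3.48%, 2.14% to 5.32%) and 94 of 3192 in the Lyve1CreCsf1rfl/fl tumor (2.94%, 2.39% to 3.59%). With a clear hashtag they were 5 of 201 (2.49%) and 73 of 2804 (2.60%). With at least 10 UMIs of the leading class the run 2 shares were 7.17% and 6.18%. IgG2b was the leading class in both, with 10 and 47 cells, against 4 and 33 of IgG2c and 6 and 12 of IgG1. The tumor with by far the most B cells had 2 IgG3 and 2 IgA cells.

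These IgG cells of the B gate were unlike the IgM/IgD cells in more than class. Their median was 15667 and 15815 UMIs in the 2 tumors of run 2, against 8837 and 2298 for the IgM/IgD cells. At least 3 UMIs of Mzb1, the plasma gate's cutoff, were present in 20 of 20 and 79 of 94 of them. A UMI of Ighd was found in 25% and 30.9% of the IgG cells and in 88.1% and 89.9% of the IgM/IgD cells. One hashtag stood at 3 times the other or more in 25% of the IgG cells of the Csf1rfl/fl tumor and in 77.7% of those of the Lyve1CreCsf1rfl/fl tumor. How many were single cells was not tested.

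Among plasma-gate cells with a class, IgG cells were 4 of 14 (28.6%, 8.39% to 58.1%) and 20 of 25 (80.0%, 59.3% to 93.2%) in the Csf1rfl/fl tumors, run 1 first, and 2 of 4 (50%, 6.76% to 93.2%) and 80 of 96 (83.3%, 74.4% to 90.2%) in the Lyve1CreCsf1rfl/fl tumors. The Csf1rfl/fl tumor of run 1 had the lowest share, with 14 cells behind it, and whether tumors or runs differ in it was not tested. Among the cells with more than 5% of UMIs from the 10 genes, a subset chosen after seeing the data and by the level of the same genes, IgG cells were 4 of 7 (57.1%, 18.4% to 90.1%) in that tumor, 19 of 20 (95%, 75.1% to 99.9%) and 79 of 86 (91.9%, 83.9% to 96.7%) in run 2, and 2 of 3 in the Lyve1CreCsf1rfl/fl tumor of run 1. IgG2c led in the Lyve1CreCsf1rfl/fl tumor of run 2, with 42 cells against 20 of IgG2b and 17 of IgG1, and IgG2b in the Csf1rfl/fl tumor of run 2, with 10 cells against 8 of IgG2c and 2 of IgG1. Each tumor had 1 IgA plasma cell. IgM/IgD cells numbered 9, 4, 1 and 15. In all 4 tumors together, 29 cells of the gate were IgM/IgD, and only 8 of them had more than 5% of their UMIs from the 10 genes, with Jchain in 27.6%. Of the switched cells, 19 of 19 IgG1, 30 of 31 IgG2b, 54 of 55 IgG2c and 4 of 4 IgA cells passed that 5%, and all had Jchain. The median Igkc level was 1661, 1730, 1461 and 1443 UMIs per 10000 in IgG1, IgG2b, IgG2c and IgA cells, and 32.0 in the IgM/IgD cells, of which 21 of 29 did not pass the 5%. The 8 IgM/IgD cells that did had a median Jchain level of 166 UMIs per 10000, against 75.9 to 156 in the cells of the other classes that passed. A cell held to its class: the leading class made up a median of 97.3% to 99.9% of the heavy-chain UMIs of switched plasma cells.

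**Figure D2:**
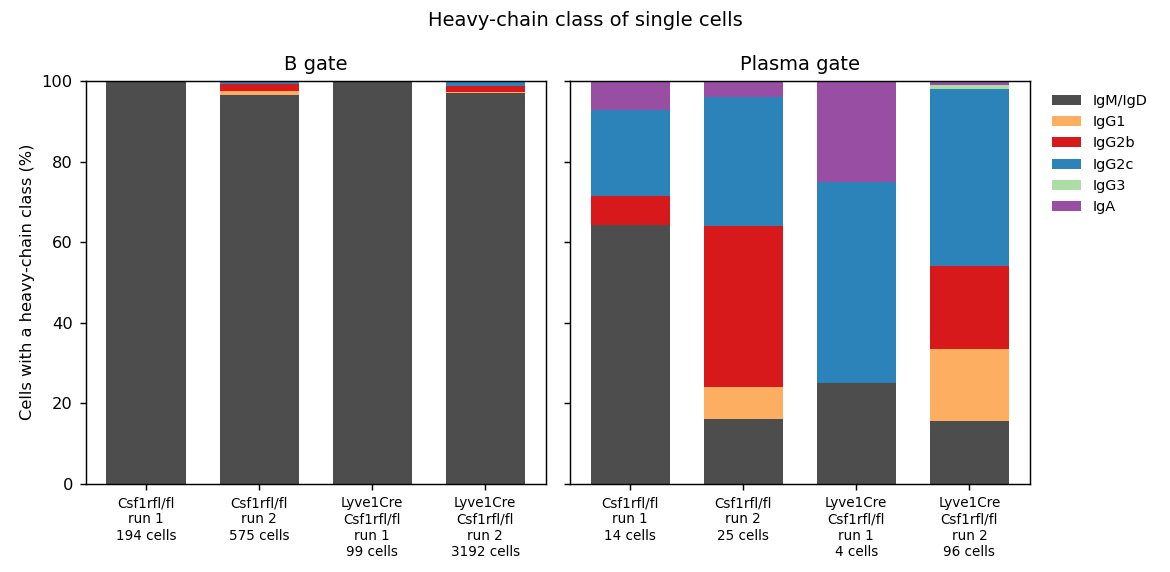
Share of cells (%) by heavy-chain class in the B gate and the plasma gate of each tumor, stacked to 100%, over the cells with at least 3 UMIs of the leading class (number under each bar). The B gate is nearly all IgM/IgD in every tumor, while 80.0% and 83.3% of plasma-gate cells of run 2 are IgG; the Lyve1CreCsf1rfl/fl bar of run 1 in the plasma gate stands for 4 cells.

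The light chain in use was called by the same rule. In the B gate, lambda (Iglc1, Iglc2 and Iglc3 together) led over kappa in 38 of 201 cells (18.9%) and 90 of 585 (15.4%) of the Csf1rfl/fl tumors, and in 24 of 115 (20.9%) and 537 of 3199 (16.8%) of the Lyve1CreCsf1rfl/fl tumors. The lambda share of the gate thus ranged from 15.4% to 20.9% over tumors. In the plasma gate lambda led in 1 of 14, 0 of 25, 0 of 4 and 3 of 97 cells.

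The genotypes were compared within the B gate over the 4 tumors (edgeR quasi-likelihood test, 2 against 2). None of 11092 genes passed an adjusted p of 0.05 (0%), though 485 had an unadjusted p under 0.05, and DESeq2 called 4. None of the 10 antibody genes was called. All 10 estimates lay above 0, higher in Lyve1CreCsf1rfl/fl, with a median log2 difference of 0.84 against 0.01 over all genes. Ighm differed by 0.54 (SE 0.29), Igkc by 0.69 (SE 0.38), Ighd by 0.78 (SE 0.35) and Iglc1 by 1.30 (SE 0.31, edgeR adjusted p = 0.515). For Ighg3 the adjusted p was 0.119, and for Igha 0.804. The 11 B cell genes had estimates above 0 too, with a median of 0.78 and none called. The within-run differences were 0.58 and 0.49 for Ighm in runs 1 and 2, 0.72 and 0.67 for Igkc, 1.05 and 1.59 for Iglc1, and -0.10 and 1.54 for Ighd. Those of run 1 for Ighm and Igkc rest largely on the 1 cell of the Lyve1CreCsf1rfl/fl tumor that gave 34.1% and 35.5% of the UMIs. With the run as a block, Iglc1, Ighg2c and Ighg3 passed, among 44 genes. Ighg2c had 0 UMIs in both tumors of run 1 and Ighg3 had 1 and 2, so both entered that fit through run 2. There 50% of the Ighg2c UMIs lay in 2 and 9 cells. For Ighg3, 1 cell gave 795 of the 1666 UMIs of the Lyve1CreCsf1rfl/fl tumor. The calls of Ighg2c and Ighg3 are thus not read as support. Leaving out any 1 tumor, 1 to 6 of the 10 passed, among 18 to 174 genes in all, with the remaining tumor of that genotype assumed to vary like the others. Without the Csf1rfl/fl tumor of run 1, or without the Lyve1CreCsf1rfl/fl tumor of run 2, the estimates of Ighg1, Ighg2b and Jchain turned below 0, and without the latter that of Ighg2c did too. Among B-gate cells with fewer than 3 UMIs of Mzb1, a choice made after seeing the data, no gene passed.

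Summed over all cells, Igkc, Ighm and Jchain ranked the tumors in the order of their B cell numbers. In such sums fewer cells of a type and less RNA per cell cannot be told apart. Igkc stood at 4.26 and 11.5 UMIs per 10000 in the Csf1rfl/fl tumors, and at 2.72 and 40.5 in the Lyve1CreCsf1rfl/fl tumors, so the latter were both the lowest and the highest. Ighm had the same order (1.20, 1.77, 0.709 and 5.05 UMIs per 10000), as had Jchain (0.329, 0.730, 0.170 and 2.73). Ighg2c stood at 0.263, 1.91, 0.360 and 10.1, and Ighg1 at 0.000370, 0.726, 0.000271 and 3.95. Igha alone was not highest in the Lyve1CreCsf1rfl/fl tumor of run 2 (0.168, 0.103, 0.181 and 0.0762). That order rested on single cells, since 1 cell gave 82.0% to 97.7% of the Igha UMIs of each tumor. Without it the levels were 0.00617, 0.00461, 0.00421 and 0.0137, highest in that tumor too. The plasma gate held 45.9% to 82.9% of all Igkc UMIs and 53.3% to 99.1% of all Jchain UMIs of a tumor, in at most 0.754% of its cells.

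No gene of 16046 passed the adjusted threshold between the genotypes in these sums (edgeR, 0% called, 210 genes with an unadjusted p under 0.05, 10 called by DESeq2). The targeted gene Csf1r, lower in both Lyve1CreCsf1rfl/fl tumors, did not pass either, so a lack of calls here does not show that genes were equal. None of the 10 antibody genes passed. Their median log2 difference was 1.76, against 0.03 over all genes. Igkc differed by 1.41 (SE 1.08), Ighm by 0.90 (SE 0.76), Jchain by 1.40 (SE 1.06), and Igha by -0.03. The other estimates were 1.59 for Ighg2b, 1.92 for Iglc1, 2.22 for Ighd, 2.23 for Ighg2c, 2.43 for Ighg1 and 6.16 for Ighg3. Their direction rested on 1 tumor. Without the Lyve1CreCsf1rfl/fl tumor of run 2, that of Igkc was -1.37, of Ighm -0.92 and of Jchain -1.48, and all 10 changed sign. The 11 B cell genes had a median of 1.97 and were all above 0, with none called. Of 7 antibody receptor genes tested, expressed mainly by myeloid cells, 6 had estimates below 0 and none was called (Fcgr1 -0.60, Fcgr4 -0.57).

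Outside the B lineage, plasmacytoid dendritic cells (pDC) held more Ighm, Igkc and lambda transcripts than T cells of the same tumor. These interferon-producing cells were gated by Siglech with Ccr9, Klk1 or Cox6a2, and without Cd79a and Ms4a1, giving 280 and 81 cells in the Csf1rfl/fl and 93 and 92 in the Lyve1CreCsf1rfl/fl tumors. Ighm stood at 8.11 and 9.37 UMIs per 10000 against 7.63 and 9.97, below the B gate in 3 of the 4 tumors and overlapping between genotypes. In T cells, which do not make antibody, it stood at 0.583 and 1.30 against 0.790 and 1.58, so that the lowest pDC value exceeded the highest T cell value. Igkc stood at 4.81 and 3.87 against 5.26 and 5.25 in pDC, and at 0.446 and 1.01 against 1.52 and 1.54 in T cells. The T cell gate held 2 cells with more than 5% of their UMIs from the 10 genes, 1 in each Lyve1CreCsf1rfl/fl tumor, and 1 cell gave 1864 of the 2719 Igkc UMIs of the T cells of run 1 there and 1 cell 1294 of the 3082 of run 2. In T cells with 0 UMIs of Mzb1 the Igkc level was 0.421 and 0.999 against 0.476 and 0.865, which follows the runs.

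Lambda transcripts stood out in pDC. Iglc3 stood at 7.70 and 6.18 UMIs per 10000 against 6.50 and 7.65 in pDC, above its level in the B gate in every tumor (2.65 and 1.69 against 5.47 and 3.68, with the split from Iglc2 uncertain), and at 0.00335 to 0.0230 in T cells. By the rule used for B cells, lambda led over kappa in 75% to 80.4% of pDC with a light-chain call. Iglc1 had 60, 3, 28 and 24 UMIs in pDC (0.0674 to 0.545 per 10000), with the Csf1rfl/fl tumor of run 2 lowest. Ighd, by contrast, had 6, 2, 4 and 4 UMIs, and Jchain 0, 2, 1 and 2. The heavy-chain class was IgM/IgD in 185 of 185, 70 of 70, 67 of 67 and 78 of 79 classed pDC.

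The B cell markers were close to 0 in these pDC. Of the 8, 2 to 5 had a UMI in a tumor, Pax5 and Cr2 were at 0 in every tumor, and the sum was 0.427 to 0.519 UMIs per 10000 in Csf1rfl/fl and 0.390 to 0.409 in Lyve1CreCsf1rfl/fl tumors, most of it Cd79b. Tnfrsf17 was at 0 in every tumor among the 7 plasma markers, whose sum was 5.06 to 7.71. In T cells the B cell markers summed to 0.0993 to 0.194. The gates' median depths were 3922 to 5057 UMIs in pDC and 3472 to 5467 in T cells.

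Thinned to 1000 UMIs per cell, which removes differences in depth, 61.8% (55.8% to 67.5%) and 61.7% (50.3% to 72.3%) of pDC in the Csf1rfl/fl and 52.7% (42.1% to 63.1%) and 60.9% (50.1% to 70.9%) in the Lyve1CreCsf1rfl/fl tumors had an Ighm UMI. In T cells the shares were 5.74%, 12.8%, 8.94% and 17.1%, with 5 to 12 shallower cells left out of each tumor and none of the pDC. Unthinned, the shares were 96.8% to 100% in pDC and 22.0% to 44.2% in T cells. For Igkc the thinned shares were 27.1% to 32.6% against 3.17% to 11.5%, and for Iglc3 38.3% to 47.8% against 0% to 0.350%. No thinned pDC had a Jchain UMI.

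**Figure D3:**
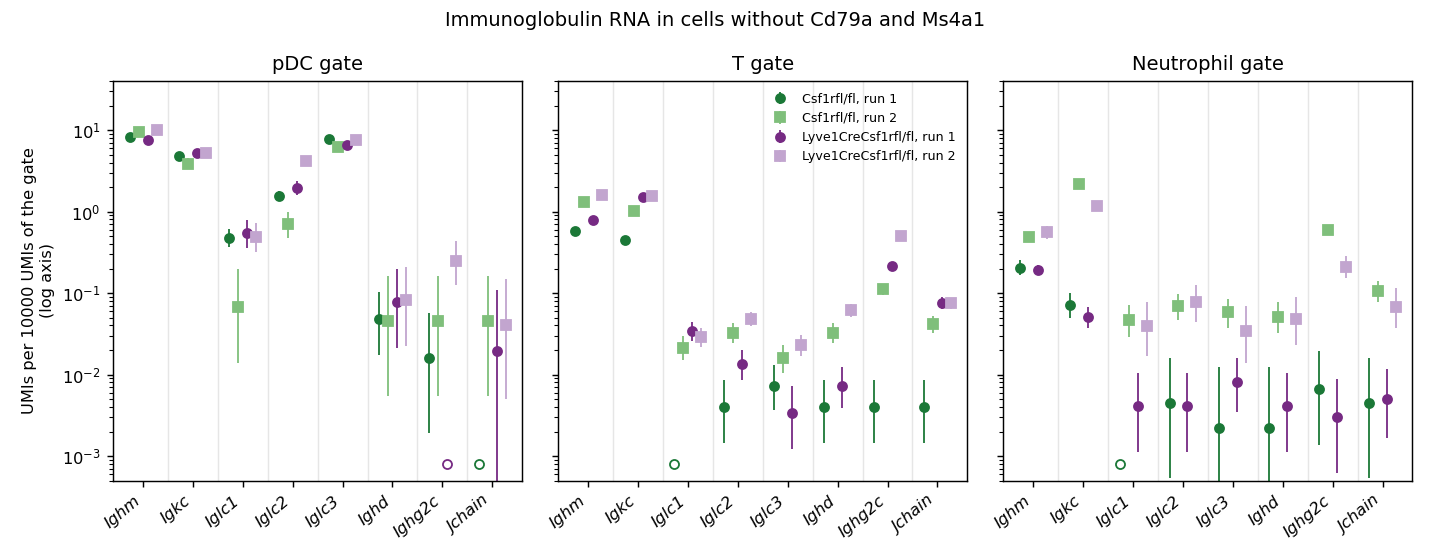
UMIs of each gene per 10000 UMIs (log axis) in the pDC gate and the T cell gate, 1 point per tumor with an exact Poisson 95% interval, open symbols at the lower edge standing for 0 UMIs. Ighm (7.63 to 9.97) and Igkc (3.87 to 5.26) of pDC lie above the T cell points (0.583 to 1.58 and 0.446 to 1.54) in every tumor, while Jchain does not.

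Tested within tumors (edgeR quasi-likelihood test with the tumor as a block, 4 tumors), 42.2% of 12740 genes differed between pDC and T cells, 18.3% higher and 23.9% lower in pDC. Of the 8 antibody genes with enough counts, which leaves out Ighg3 and Igha, 4 were higher, 1 was lower and 3 were not called, and with so large a background nothing is read from that share. Ighm was higher by a log2 difference of 3.15 (SE 0.14, adjusted p = 9.34e-17), Igkc by 2.24 (SE 0.18, adjusted p = 3.96e-11) and Iglc1 by 4.42 (SE 0.50, adjusted p = 3.37e-08). Outside the 10, Iglc3 was higher by 9.14 (SE 0.21) and Iglc2 by 6.44 (SE 0.28). Ighd was higher by 1.69 (SE 0.59, adjusted p = 0.0224) on 2 to 6 UMIs per tumor, and Ighg2c lower (log2 difference -1.38, SE 0.42, adjusted p = 0.00947). Both of these calls were lost without the tumor block and without the Lyve1CreCsf1rfl/fl tumor of run 1, that of Ighd also without the Csf1rfl/fl tumor of run 1 and that of Ighg2c with DESeq2. Among the authors' kept cells the Ighg2c estimate turned to 0.30 and was not called. Its T cell side rested on single cells, since 1 cell gave 379 of 384 Ighg2c UMIs in the T cells of the Lyve1CreCsf1rfl/fl tumor of run 1 and 1 cell 735 of 989 in that of run 2. With T cells restricted to those with 0 UMIs of Mzb1, a choice made after seeing the data, Ighg2c stood at 0.00400 and 0.111 against 0.00280 and 0.127 UMIs per 10000 in T cells and its difference was 0.41 (SE 0.48, edgeR adjusted p = 0.529), while Ighm (3.15), Igkc (2.90), Iglc1 (5.34) and Ighd (1.73) were still called. Jchain (-0.98), Ighg1 (0.19) and Ighg2b (-0.0040) were not called.

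Among other genes of the antibody pathway in that comparison, 3 of 7 B cell genes tested were higher in pDC, Cd79b (2.82), the invariant chain Cd74 (0.89) and the class II gene H2-Aa (0.63). Of 17 plasma cell and secretion genes tested, 12 were higher, among them Tnfrsf13b (3.19), Txndc5 (2.74), Xbp1 (2.51) and Edem2 (2.51), and Prdm1 was lower (-3.83). Of the switching and germinal center genes, Mef2b was higher (3.85) and Fas lower (-1.0) among 5 tested. Of 6 receptor genes, Fcgrt (2.55), the neonatal Fc receptor, and Fcer1g (1.40) were higher and Fcgr1 was lower (-0.53).

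All remaining cells without Cd79a and Ms4a1 gave a measure of antibody RNA outside the B lineage. A few of them were rich in it: 28 cells outside the B and plasma gates and the rest of the B lineage had more than 5% of their UMIs from the 10 genes, and 26 of these had at least 3 UMIs of Mzb1. They weighed heavily on the sums. Of the other cells' Igkc UMIs in the Lyve1CreCsf1rfl/fl tumor of run 1, 40.1% lay in 1 cell, and of the Ighg3 UMIs in that of run 2, 97.8%. The levels below were therefore also taken over the other cells with 0 UMIs of Mzb1, a choice made after seeing the data.

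Over the cells with 0 UMIs of Mzb1, which still held 1 of the 28 rich cells, this background differed between the runs more than between the genotypes. Igkc stood at 0.248 (Csf1rfl/fl) and 0.236 (Lyve1CreCsf1rfl/fl) UMIs per 10000 in run 1, and at 0.828 and 0.850 in run 2. Ighm stood at 0.474 and 0.495 against 0.826 and 1.14, and Jchain at 0.00270 and 0.00319 against 0.0426 and 0.0477. Ighg2c had 0.00337 and 0.00218 against 0.137 and 0.125, and Ighg1 had 1 and 0 UMIs in run 1 against 580 and 407 in run 2. For these 5 genes the runs did not overlap, and the genotypes within a run differed by less than the runs. For Igha the runs overlapped, at 0.00216 and 0.00377 against 0.00199 and 0.00289. Ighd, Ighg2b, Ighg3 and Iglc1 are not listed here. The share of all genes that separate the runs in this way is not given, so nothing particular to antibody genes is read from it. Many genes differed between runs. Over all other cells, 3991 of 15753 had an unadjusted p under 0.05 (edgeR quasi-likelihood test).

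For Igkc, neutrophils, macrophages, natural killer cells and T cells were each higher in run 2, at unequal size. Pairs here give Csf1rfl/fl before Lyve1CreCsf1rfl/fl. Neutrophils had 0.0716 and 0.0507 in run 1 and 2.20 and 1.18 in run 2, and macrophages 0.0482 and 0.0684 against 0.658 and 0.657. Natural killer cells ranged from 0.0280 to 0.0549 against 0.663 to 2.35, and T cells had 0.421 and 0.476 against 0.999 and 0.865. For pDC the runs overlapped (5.32 and 3.78 against 4.22 and 6.05). The ratio of Igkc to Ighm also differed between classes. In run 1 it was 0.0530 to 0.0843 in natural killer cells, 0.183 to 0.227 in macrophages, 0.263 to 0.348 in neutrophils and 0.600 to 0.726 in T cells. In run 2 it was 0.730 to 1.23, 1.46 to 1.73, 2.11 to 4.66 and 0.553 to 0.766 in the same classes. The part of single rich cells in these levels and ratios is not given, and the source of this RNA was not tested. Thinned to 1000 UMIs, an Igkc UMI was present in 12.7% and 12.3% of neutrophils of run 2 and in 0.874% and 0.487% of those of run 1.

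Tested with the genotype as a covariate over all other cells, 4 of 15753 genes (0.0254%) were higher in run 2 and none was lower, with 3991 at an unadjusted p under 0.05 (edgeR quasi-likelihood test). Of the 4, 3 were antibody genes: Ighg1 (edgeR adjusted p = 0.00347), Ighg2c (log2 difference 5.40, SE 0.30, adjusted p = 0.0320) and Jchain (4.36, SE 0.21, adjusted p = 0.0261). The other was Gm15564. All 3 calls were lost without the genotype as a covariate (edgeR adjusted p = 0.0513, 0.0798 and 0.0726), and that of Ighg2c also with clear hashtags only, and the fit has 1 residual degree of freedom, with which the test made the most false calls on simulated data. Ighg1, with 1 and 0 UMIs in run 1, entered the test only through its counts in run 2, so no fold is given and its p-value is not read as support. Igkc (2.56, SE 0.23, adjusted p = 0.0643) and Ighm (0.65, SE 0.14, adjusted p = 0.0769) missed the threshold. In the cells with 0 UMIs of Mzb1, 9 of the 10 passed, among 1058 genes called in all, against 4 in the main fit. The 9 include Ighg1 and also Ighg3, which had 4 UMIs in each run 1 tumor over all other cells. Both entered that fit only through their counts in run 2. The number of genes tested there is not given, so nothing is read from the count of 9. Igkc had a difference of 1.59 (SE 0.09, edgeR adjusted p = 0.0055) and Ighm 0.80 (SE 0.11, edgeR adjusted p = 0.0345), and Igha did not pass. That fit has the same 1 residual degree of freedom, so these calls are no firmer than those above. Run 2 is also the run of the tumor with 3356 gated B cells, and with 1 such tumor the share of its cells in the background cannot be told apart from other differences between the runs. Between genotypes, none of 15753 genes passed the adjusted threshold in the other cells (edgeR, 0% called, 232 with an unadjusted p under 0.05, 3 called by DESeq2). None of the 10 passed, with 10 of 10 estimates above 0 and a median of 1.96 against 0.02 over all genes. Those estimates include the few rich cells, and in the cells with 0 UMIs of Mzb1 Ighg1 (-0.11), Ighg2b (-0.094), Ighg2c (-0.17) and Igkc (-2.96e-05) lay below 0. Over all other cells the estimates of Igkc and Jchain were 1.75 and 2.30, those of Ighm, Igha, Iglc1 and Ighd 0.26, 0.32, 0.70 and 0.76, and those of Ighg2b, Ighg1, Ighg2c and Ighg3 2.17, 2.20, 2.78 and 5.36. For Igkc and Jchain they were -0.42 and -0.87 without the Lyve1CreCsf1rfl/fl tumor of run 2.

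Across 38 profiles, each the sum of 1 cell class in 1 tumor, genes were ranked by how like their levels were to those of Ighm, Igkc, Ighg2b and Jchain. The measure was the Pearson correlation of log2(UMIs per 10000 + 0.1), as a description over profiles that share tumors and runs. Rankings for the other antibody genes are not given. For Ighm the leading genes were Gm30211 (r = 0.923), Iglc2 (0.913), Iglc3 (0.905), Ralgps2 (0.903) and Mef2c (0.886). For Igkc they were Iglc1 (0.886), Mzb1 (0.868), which set the plasma gate, Jchain (0.842), Iglc2 (0.839) and Syvn1 (0.832). For Jchain they were Ighg2c (0.967), Iglv1 (0.957), Eaf2 (0.936), Ighg1 (0.935) and Igkv17-127 (0.925), and for Ighg2b they were Jchain (0.919), Iglv1 (0.898), Ighv14-2 (0.891), Ighg2c (0.891) and Eaf2 (0.890).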

How the data were processed

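Single-cell RNA of 4 tumors was measured in 2 pooled Chromium 3′ runs. According to the labels and the study's methods, the authors mapped reads to mm10 with Cell Ranger 6.0.1 and deposited raw UMI counts per gene and hashtag counts per barcode, both used here. The authors' deposited Seurat SCTransform values, on a scale treated here as a score, served only to list the barcodes they kept; these are singlets left after they removed clusters specific to the Lyve1CreCsf1rfl/fl tumor of run 2. The strand setting of the counting was not given in the sources used here.

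Each barcode was given to the tumor of its higher hashtag, from the deposited table of hashtags and genotypes. Of 53361 barcodes, 37 with equal hashtags and 4768 with 5% or more mitochondrial UMIs (the groups overlap) were left out, which left 48560; no minimum of UMIs was set. The B and plasma gates are given in the report. Cells without Cd79a and Ms4a1 were pDC (at least 2 UMIs of Siglech and 1 of Ccr9, Klk1 or Cox6a2), T cells (at least 2 UMIs of Cd3d, Cd3e and Cd3g), natural killer cells (Ncr1 and under 2 UMIs of those), neutrophils (S100a8 and S100a9 at 3% of UMIs or more) or macrophages (at least 3 UMIs of C1q genes, or Csf1r with at least 3 of Lyz2); cells in more than 1 gate were set apart. Levels are UMIs per 10000, with exact Poisson intervals at 95%.

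UMIs were summed per tumor and class and tested with edgeR 4.0.16 (quasi-likelihood test, filterByExpr, TMM, R 4.3.3), with Benjamini-Hochberg adjustment over all genes at 0.05; within-tumor contrasts had the tumor as a block. The changes from run 1 to run 2 of the genotypes were correlated across genes (r = 0.647 in all cells, 0.627 in other cells and 0.399 in the B gate), and a run pooled the genotypes, so a fit with the run as a block was also made. Alternatives were DESeq2 1.42.0, no filter, clear hashtags (ratio of at least 3), the authors' kept cells, at least 1000 UMIs per cell, stricter gates and leaving out each tumor. The SE was taken from the log2 difference and its F statistic. On simulated data the test recovered known changes but made more false calls than its threshold allows, most of all for the comparison of runs, which has 1 residual degree of freedom. By the rule for named genes, the 10 genes and other listed genes were examined in every comparison; values are given for those a result turns on, and the rest by counts and medians. Ighg3 and Igha had too few counts for the test of pDC against T cells. The 10 genes and the lists were chosen with earlier results of these data known. Python 3.11.15, numpy 2.4.6, scipy 1.17.1, pandas 2.3.3, biopython 1.88 and matplotlib 3.10.9 were used.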

Additional observations from a re-analysis of the deposited data

Results flagged for a closer look

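Several genes moved in opposite directions between the genotypes in the 2 runs, with log2 differences of Lyve1CreCsf1rfl/fl over Csf1rfl/fl taken from 1 tumor each, so the difference between runs was not tested. Summed over all cells, Ighm differed by -0.76 in run 1 and 1.51 in run 2, Ighd by -0.52 and 2.54, Ighg2b by -0.31 and 1.66, Igkc by -0.65 and 1.81, and Jchain by -0.95 and 1.90, while Igha went the other way (0.10 and -0.43). The Igha values rest on 1 cell in each tumor, which gave 82.0% to 97.7% of its Igha UMIs. In the other cells, without Cd79a and Ms4a1, Ighm differed by -0.12 and 0.49, Ighd by -0.20 and 0.99, Iglc1 by -0.044 and 1.06, and Igha by 0.88 and -0.24. In the B gate Ighd differed by -0.10 and 1.54. The B cell share of the tumors moved the same way between runs, from 1.86% to 0.938% in run 1 and from 5.30% to 26.1% in run 2, and its part in these differences was not tested.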

How the results depend on the processing

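The tumors numbered 2 per genotype, and the plasma gate held as few as 4 cells, so levels of rare classes rest on single cells and the design could not separate the Lyve1CreCsf1rfl/fl tumor of run 2 from its genotype. Across the alternatives, 80 of 88 values kept direction and side of the threshold for plasma against B, 73 of 88 for pDC against T cells (9 changed sign), 46 of 70 for the runs (2), and between genotypes 77 of 105 in the B gate (9), 81 of 100 in all cells (16) and 89 of 110 in other cells (16).

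Genes called between genotypes, in all cells, were 10 with DESeq2 and 2 without a filter on low counts, and DESeq2 called 3 in other cells. In the B gate 4 were called with DESeq2, 71 without a filter (3 of the 10 genes), 13 among the authors' kept cells and 44 with the run as a replicate block (3 of the 10). Each time the 3 were Iglc1, Ighg2c and Ighg3, of which Ighg2c and Ighg3 had at most 2 UMIs in a tumor of run 1. Plasma against B gave 624 genes with DESeq2 and 634 with no replicate block. For pDC against T cells 3 of the 10 were called with no block, where the main fit tested 8 of them and called 42.2% of all genes. Between runs, DESeq2 called 694 genes (7 of the 10), no filter 1258 (9), clear hashtags 2, kept cells 16 (5), at least 1000 UMIs per cell 8, no replicate block 9 (0 of the 10) and cells without Mzb1 1058 (9). Ighg1 and Ighg3 had at most 4 UMIs in the other cells of a run 1 tumor, so nothing is read from these counts of the 10. The replicate block moved no other count by over 1.5 times. With 10 UMIs of the leading class, 7.17% and 6.18% of B-gate cells of run 2 were IgG (Csf1rfl/fl and Lyve1CreCsf1rfl/fl), and among plasma-gate cells with over 5% of UMIs from the 10 genes 95% and 91.9%.

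Estimates that changed sign between genotypes were, in all cells, Igha (1.31 with clear hashtags and 0.22 in kept cells), Ighg1 (-0.22), Ighg2c (-0.11) and Jchain (-0.19) in kept cells. In other cells they were Ighg1 (-0.19), Ighg2c (-0.049), Igkc (-0.18) and Jchain (-0.19) in kept cells, and Ighg1 (-0.11), Ighg2b (-0.094), Ighg2c (-0.17) and Igkc (-2.96e-05) without Mzb1. In the B gate Ighg1 was -0.50 with clear hashtags and -1.14 with stricter gates. For pDC against T cells, Ighg2b was 0.19 with DESeq2, Ighg2c 0.30 and Jchain 0.084 in kept cells, Ighg2c 0.41 and Jchain 0.0089 with T cells without Mzb1, and Ighg1 -0.17 with no block, and between runs Igha was -0.22 in kept cells and -0.46 without Mzb1.

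Leaving out 1 tumor at a time, with the lone tumor of a genotype assumed to vary like the others, called 0 to 76 genes in all cells (0 to 3 of the 10), 0 to 96 in other cells (0 to 5) and 18 to 174 in the B gate (1 to 6), the highest each time without the Lyve1CreCsf1rfl/fl tumor of run 1. Plasma against B gave 202 genes, without the Lyve1CreCsf1rfl/fl tumor of run 2, to 1196 (7 to 10). For pDC against T cells 3 to 5 of the 10 were called, where the main fit tested 8 of them and called 42.2% of all genes, so nothing is read from that count. The estimates between genotypes in all cells ranged from -0.92 to 1.66 for Ighm, -1.67 to 3.43 for Ighd, -10.11 to 12.15 for Ighg1, -3.58 to 4.91 for Ighg2b, -1.41 to 4.14 for Ighg2c, -1.51 to 8.10 for Ighg3, -0.97 to 0.53 for Igha, -1.37 to 2.27 for Igkc, -1.69 to 3.80 for Iglc1 and -1.48 to 2.27 for Jchain. In other cells they ranged from -0.27 to 0.63 for Ighm, -1.28 to 1.90 for Ighd, -12.36 to 11.40 for Ighg1, -1.25 to 8.08 for Ighg2c, -1.55 to 7.09 for Ighg3, -0.42 to 3.16 for Igkc, -0.31 to 1.28 for Iglc1 and -0.87 to 6.27 for Jchain, and in the B gate from -5.89 to 13.44 for Ighg1, -8.07 to 15.41 for Ighg2b, -12.81 to 14.97 for Ighg2c and -3.40 to 7.64 for Jchain. In each of these ranges but that of Igha the lowest value was without the Lyve1CreCsf1rfl/fl tumor of run 2, and those of IgG genes near 0 in a group are no bounds. For Ighg2b in pDC against T cells the range was -0.28 to 0.16. The causes were not tested. Leaving out a tumor left no residual degrees of freedom for the runs, and too few plasma cells were kept by the authors, so neither was run.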
